A study of Mus musculus with 18 samples.

Results

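The citric acid cycle and the mitochondrial oxidation of fatty acids were followed through 33 genes in single mouse oocytes. The genes were taken by mouse symbol from a fixed list, and the list was chosen with earlier results of these data known. It held 19 genes of the citric acid cycle and its malate and isocitrate side reactions. The other 14 were genes of fatty acid oxidation, of 47069 gene identifiers in the tables. RNA was sequenced from oocytes at 2 stages, immature oocytes whose nucleus, the germinal vesicle (GV), is intact, and mature eggs arrested at metaphase II (MII). All came from C57BL/6JAusb mice: young control animals of 4 weeks, aged control animals of 12 months, both drinking plain water, and aged animals given nicotinamide mononucleotide (NMN), a precursor of NAD, at 2 g/L in their water for 4 weeks. An oocyte was lysed mildly, the nucleus was spun down and the supernatant went into the library, so the libraries hold the RNA of that supernatant. Of 18 deposited libraries 16 were used: at GV 2 from young controls, 2 from aged controls and 3 from NMN mice, and at MII 3 from each.

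The citric acid cycle burns acetyl-CoA to carbon dioxide in the mitochondrial matrix and hands its electrons to NAD and FAD. Fatty acid oxidation supplies acetyl-CoA by shortening acyl chains in a repeated round of 4 reactions, and the electrons of its first step leave through electron transfer flavoprotein. Mouse oocytes depend on mitochondrial oxidation of pyruvate, and blocking fatty acid oxidation is known to impair their maturation. A fully grown oocyte does not transcribe during maturation, so it works with stored mRNA, part of which is degraded between GV and MII.

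The labels name no animals, so each of the 6 groups stands as 1 sample of its condition and no comparison below carries a test. Values are CPM, the expected counts of a gene scaled to a common library size with TMM factors, given per oocyte or as mean ± SD between oocytes. The contrast between groups was the ratio of their mean CPM, each with 1 CPM added, on the log2 scale, and a gene was called where that ratio reached 2-fold. A fold printed for a gene is the plain ratio of mean CPM, with nothing added. CPM is relative to each library, and total RNA per oocyte is not known. Library totals ran from 2756181 to 5586894 counts, and 3 counts, taken as the floor, were worth 0.537 to 1.09 CPM before TMM scaling. Of 11 oocyte markers, such as Gdf9 and Zp3, 7 to 11 were detected in each oocyte, with summed levels of 2902 to 28108 CPM. The 3 MII NMN libraries stood apart, with 6400, 5640 and 7704 detected genes against 8515 to 13756 in the other 13. Mitochondrially encoded genes gave 43.0, 33.2 and 6.18% of their counts, against 2.76 to 24.4% in the other 13. Among MII controls this share was 5.08 to 24.4%, with the highest in MII young control 1, so the NMN library at 6.18% did not stand apart by it. Titles place the libraries in 2 batches. MII aged NMN 2 was read as batch 1 although its title says batch 2. GV young control 1 and 2-1 held identical values, so they were counted once, and by its titles the batch of that library is ambiguous. The share of genes whose expected count was not a whole number differed between batches. It was at least 19.5% in every other library read as batch 1, MII aged NMN 2 among them. In every batch 2 library it was at most 14.6%. The duplicated library, at 14.5%, lay with batch 2 by this share.

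Of the 33 genes, 29 passed the filter on low counts, with 12161 genes of all. The 4 that did not were Idh2, the mitochondrial NADP-linked isocitrate dehydrogenase, Acadvl and Acads, the very long and short chain acyl-CoA dehydrogenases, and Cpt1a, the liver-type carnitine palmitoyltransferase at the gate of fatty acid oxidation. Acads had no count in any of the 16 oocytes, which allows up to 0.537 to 1.09 unscaled CPM in a library. Cpt1a had counts in 2 oocytes, at 2.28 CPM in MII young control 2-1 and 1.09 CPM in MII aged control 2-1. Idh2 had counts in 2, Acadvl in 5 and Acadl, the long chain enzyme, in 7 oocytes. Hadh, the short chain hydroxyacyl-CoA dehydrogenase, was found in 12 oocytes but never above 4.83 CPM. By contrast 9 genes were found in every oocyte: Etfa, Sdhc, Acadm, Suclg1, Me2, Echs1, Cs, Hadhb and Etfdh. Levels of different genes are comparable only per length, as TPM, and on that scale the highest means over the 16 oocytes were Etfa with 135 TPM, Sdhd with 98.1 TPM, Sdhb with 86.4 TPM and Mdh1 with 77.8 TPM. Acadvl shares an exon stretch of 377 bases of its 2168-base transcript with Dvl2 on the opposite strand, which drew 252 counts against 38, and reads within that stretch are ambiguous. Echs1 shares 142 bases of exon with Paox on the opposite strand, with 3129 counts for Echs1 and 1538 for Paox, and whether counting used strand is not given in the sources used here.

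**Figure D1:**
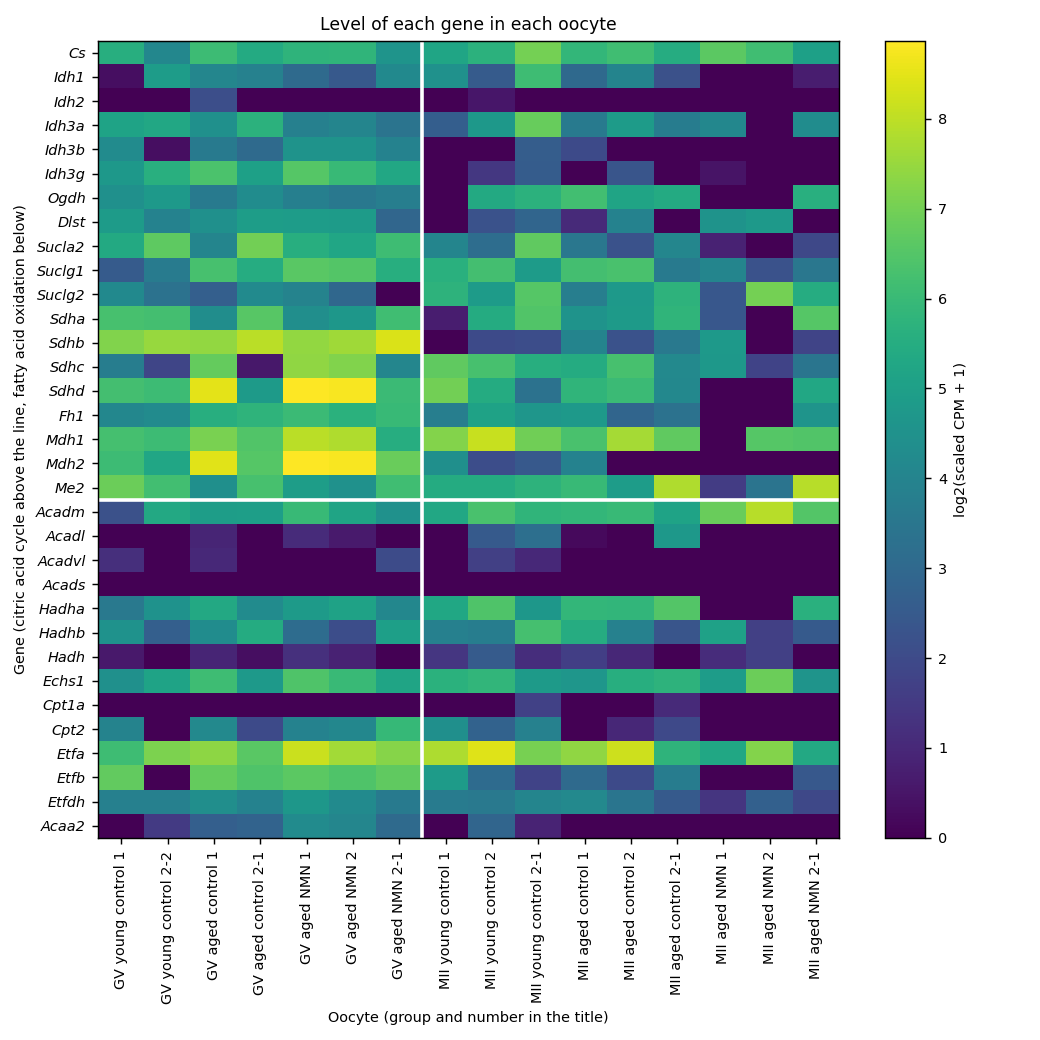
Level of each of the 33 genes (rows) in each of the 16 oocytes (columns), as log2 of scaled CPM + 1. White lines separate the citric acid cycle from fatty acid oxidation and GV from MII oocytes. Sdhb, Mdh2, Idh3g and Idh3b darken from GV to MII, while Etfa, Mdh1, Cs and Acadm stay bright in most MII oocytes.

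Summed over all 33 genes, the pathway stood at 1075 ± 10.7 CPM in GV young control, 1697 ± 445 CPM in GV aged control and 2145 ± 621 CPM in GV NMN oocytes. The MII sums were 1248 ± 173 CPM in young control, 1006 ± 147 CPM in aged control and 713 ± 245 CPM in NMN oocytes. The citric acid cycle genes alone summed to 812 and 821 CPM in the 2 GV young control oocytes, 1059 and 1539 CPM in GV aged controls and 1007, 1874 and 2016 CPM in GV NMN oocytes. All 5 aged GV oocytes lay above both young ones in this sum. Fatty acid oxidation genes summed to 256 and 262 CPM, 323 and 472 CPM, and 442, 472 and 624 CPM in the same order. At MII the 2 sums overlapped between young and aged controls, and the NMN group reached down to 216 and 214 CPM. Detected members ranged from 25 to 31 per GV oocyte and from 22 to 31 per MII control oocyte, against 17, 13 and 21 in the MII NMN oocytes, whose libraries also held the fewest detected genes. The part of library complexity in these lower sums was not tested.

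**Figure D2:**
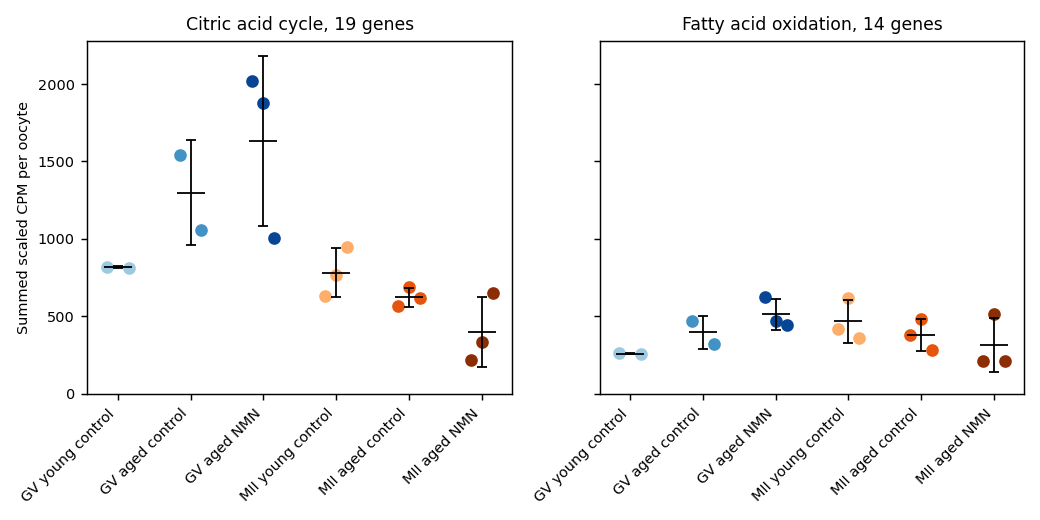
Summed scaled CPM of the 19 citric acid cycle genes (left) and the 14 fatty acid oxidation genes (right), 1 point per oocyte, with mean and SD between oocytes as black lines. In GV oocytes the citric acid cycle sum runs from 812 CPM in a young control to 2016 CPM in an NMN oocyte, and in MII oocytes from 216 to 946 CPM.

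Between GV and MII some genes of both pathways were higher and others lower, in shares near those of all kept genes. In young controls 12 of the 29 kept genes were at least 2-fold higher in MII than in GV oocytes, beside 36.3% of all kept genes, and 7 were at least 2-fold lower, beside 25.8%. In aged controls 5 were higher, beside 16.9%, and 11 lower, beside 35.9%. In NMN oocytes 3 were higher, beside 16.9%, and 16 lower, beside 46.7%. The median log2 ratio of the 29 genes was 0.69 in young controls, -0.64 in aged controls and -1.51 in NMN oocytes, against 0.35, -0.29 and -0.82 over all kept genes. Within batch 1 these medians were -0.01, -0.52 and -2.89, and within batch 2 they were 0.45, -0.84 and -1.40. The young value in batch 1 rests on the GV library of ambiguous batch, which lay with batch 2 by its fractional counts. Of the 11 kept fatty acid oxidation genes 6 were higher and 1 lower in young controls, 2 and 3 in aged controls, and 1 and 5 in NMN oocytes. Of the 18 kept citric acid cycle genes 6 were higher and 6 lower in young controls, 3 and 8 in aged controls, and 2 and 11 in NMN oocytes. Markers of cumulus and granulosa cells, 16 genes of which Foxl2, Amh and Amhr2 had no count anywhere, reached sums of 17.5 to 26.3 CPM in young GV oocytes and 44.9 to 312 CPM in young MII oocytes. The sums in aged controls were 17.2 to 23.5 CPM before and 17.8 to 81.6 CPM after maturation, those in NMN oocytes 5.78 to 84.3 and 0 to 43.5 CPM, and their part in these differences was not tested.

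**Figure D3:**
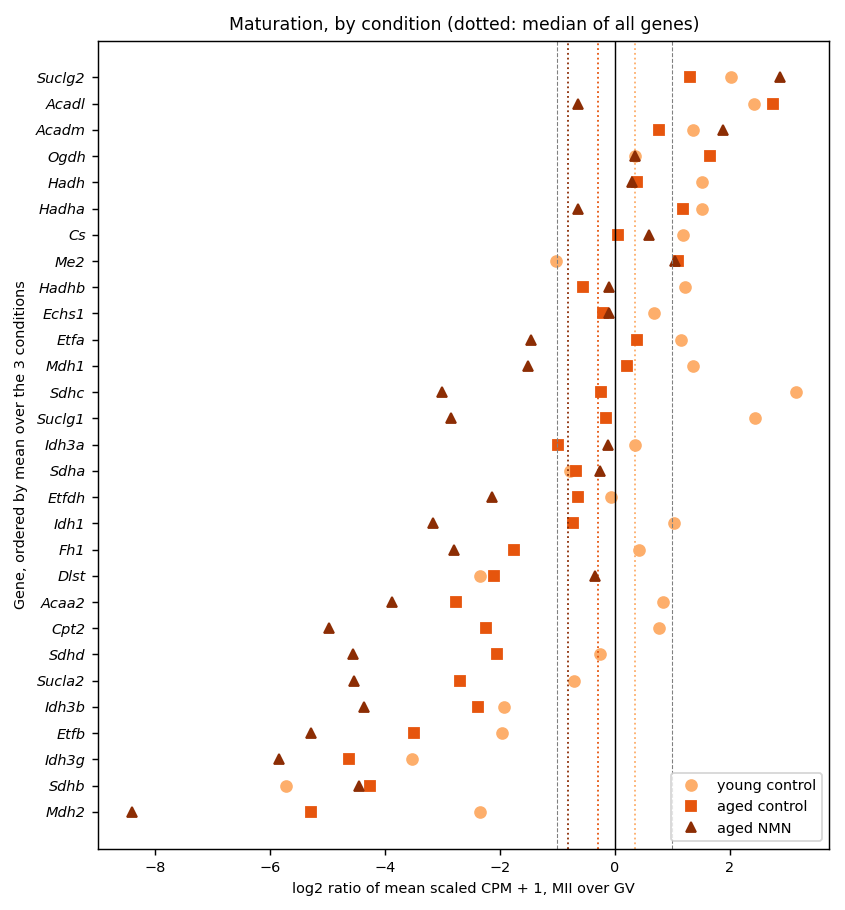
Log2 ratio of mean scaled CPM + 1, MII over GV, for the 29 kept genes in young control (circles), aged control (squares) and NMN oocytes (triangles). Dashed grey lines mark 2-fold and dotted lines the median over all kept genes in the condition of the same colour. Mdh2, Sdhb, Idh3g, Etfb and Idh3b lie left of the 2-fold line in all 3 conditions and Suclg2 lies right of it in all 3.

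The same 5 genes were at least 2-fold lower in MII oocytes in all 3 conditions: Sdhb, Mdh2, Idh3g, Idh3b and Etfb. Over all kept genes 15.8% were, so 5 of 29 is close to the background. Each encodes 1 subunit or 1 isoform of an enzyme with other members in the list. With the added condition that no MII oocyte overlapped a GV oocyte, 3 remained, Sdhb, Mdh2 and Idh3g, beside 8.56% of all kept genes. A single gene, Suclg2, was at least 2-fold higher in all 3 conditions, beside 3.58%. The count of 5 became 6 with RLE scaling and 4 on the TPM scale.

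The annotated 3′ untranslated ends of these 5 mRNAs are shown because stored oocyte mRNAs are kept or lost through elements near their poly(A) site. Each line gives 30 bases of the transcript, 5′ to 3′, from GENCODE vM21 on GRCm38, with the poly(A) signal AATAAA in capitals; Mdh2 held neither AATAAA nor ATTAAA in its last 40 bases.
Sdhb, chr4:140979163-140979192, plus strand: tacagcatatgtAATAAAcatttaagataa
Idh3g, chrX:73778969-73778998, minus strand: gacaggacccagAATAAAgccacttctgtt
Idh3b, chr2:130279315-130279344, minus strand: aaaaaaatagtcAATAAAcaaaatacacac
Etfb, chr7:43457749-43457778, plus strand: ctgatactctgcAATAAAactgtgcctttc
The untranslated ends of the 5 were short, 60 bases in Etfb, 91 in Sdhb, 107 in Idh3g, 183 in Mdh2 and 331 in Idh3b, with a median of 107 bases. The other 24 kept members had 203 to 2636 bases with a median of 725.5. The same direction held over the transcriptome, with a median of 401 bases in the 1648 protein-coding genes at least 2-fold lower in all 3 conditions and 1042 bases in the 9077 others. Whole transcripts were shorter too, with a median of 1331 bases in the 5 and 2337 in the other 24 members. Over the transcriptome the medians were 1878 bases in the 1648 genes and 3089 in the 9077 others. These lengths are those of 1 annotated transcript a gene, and no test was made of them.

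The cytoplasmic polyadenylation element, a U-rich motif through which stored mRNAs gain poly(A) tails in maturing oocytes, was searched as TTTTAT or TTTTAAT on the transcript strand in the last 100 bases. The search found it in 20.3% of 10022 kept protein-coding genes whose untranslated end was at least 100 bases, and in 6 of 31 members, or 19.4%: Cs, Idh1, Fh1, Acadm, Hadh and Etfa. The letters were absent from that window in the 5 genes above, of which Sdhb and Etfb have ends shorter than 100 bases. All 6 are shown with the motif in capitals, since they did not move together at MII.
Acadm, chr3:153922387-153922416, minus strand: actgaacgagaaTTTTATttgtcttgttta
Etfa, chr9:55454578-55454607, minus strand: tattatattcctTTTTAATtttttgtggtt
Cs, chr10:128362450-128362479, plus strand: taaaaataataaatgtTTTTATtaacaatg
Idh1, chr1:65158636-65158665, minus strand: ctaaactgttaaTTTTAATtaaaatgaagt
Fh1, chr1:175600374-175600403, minus strand: gcaaaataaagtttaTTTTATaaaagaaaa
Hadh, chr3:131233479-131233508, minus strand: taaaatgaaatcTTTTAATttgtaaacatt
The log2 ratios of MII to GV in young control, aged control and NMN oocytes were 1.36, 0.77 and 1.88 for Acadm. They were 0.41, -1.76 and -2.80 for Fh1 and 1.03, -0.73 and -3.17 for Idh1, so genes with these letters were higher in some conditions and lower in others. A match of letters is not a measured site. A poly(A) signal AATAAA or ATTAAA lay in the last 40 bases of 27 of the 31 members, or 87.1%, and of 77.6% of the 10022 genes.

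The entry of acetyl-CoA into the cycle is catalysed by citrate synthase, Cs. It was found in every oocyte. GV oocytes held 45.6 and 16.2 CPM in the young control, 66.9 and 42.3 CPM in the aged control and 53.6, 54.6 and 23.1 CPM in the NMN oocytes. MII oocytes held 36.2, 50.96 and 129 CPM in young control, 57.3, 69.6 and 44.01 CPM in aged control and 98.1, 69.6 and 32.2 CPM in NMN oocytes. The log2 ratio of MII to GV was 1.19 in young controls, 0.06 in aged controls and 0.60 in NMN oocytes, and the GV and MII values overlapped in each condition.

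Isocitrate is oxidised in the matrix by the NAD-linked isocitrate dehydrogenase, a complex of the catalytic subunit Idh3a with the subunits Idh3b and Idh3g. Idh3g, at chrX:73778963-73786897 on the minus strand of GRCm38, stood at 25.5 and 47.03 CPM in the young control, 80.97 and 31.97 CPM in the aged control and 91.6, 61.7 and 38.5 CPM in the NMN GV oocytes. The MII oocytes held 0, 1.71 and 4.97 CPM in young control, 0, 4.01 and 0 CPM in aged control and 0.396, 0 and 0 CPM in NMN oocytes. Every GV oocyte was thus above every MII oocyte. With the library of ambiguous batch set aside, as in all batch ranges below, the same held within batch 1 (61.7 to 91.6 against 0 to 4.01 CPM) and within batch 2 (32.0 to 47.0 against 0 to 4.97 CPM). Group means were 16.3-fold lower at MII in young and 42.3-fold lower in aged controls, and the 3 MII NMN oocytes held 1 count together.

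Idh3b was scarcer, at 18.6 and 0.261 CPM in the young control, 11.4 and 7.38 CPM in the aged control and 22.7, 22.3 and 14.2 CPM in the NMN GV oocytes. At MII it had counts in 2 of 9 oocytes, at 0, 0 and 5.18 CPM in young control, 2.996, 0 and 0 CPM in aged control and 0, 0 and 0 CPM in NMN oocytes. The log2 ratios were -1.93, -2.38 and -4.37, and the young groups overlapped because GV young control 2-2 held only 0.261 CPM. Against the group floor, NMN oocytes were at least 58.8-fold lower at MII. Idh3b is also one of the genes that differed between NMN and control GV oocytes, where the means were 19.7 ± 4.76 and 9.40 ± 2.86 CPM, a 2.1-fold ratio of means with no overlap and a log2 ratio of 1.00 with 1 CPM added, just under the threshold.

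Idh3a, the catalytic subunit, did not follow its partners. GV oocytes held 34.03 and 38.9 CPM in the young control, 20.7 and 50.4 CPM in the aged control and 13.5, 15.2 and 9.63 CPM in the NMN oocytes. The MII values were 5.24, 25.2 and 109.9 CPM in young control, 11.6, 28.3 and 12.4 CPM in aged control and 16.2, 0 and 18.8 CPM in NMN oocytes. MII and GV oocytes overlapped in all 3 conditions, with log2 ratios of 0.35, -0.99 and -0.12. In GV oocytes the NMN group was lower than the aged control group without overlap, 12.8 ± 2.87 against 35.6 ± 20.99 CPM, a log2 ratio of -1.41 that shrank to -0.66 without GV aged control 2-1 and to -0.50 within batch 1. Of the NADP-linked enzymes, the cytosolic Idh1 was found in 14 oocytes at up to 67.5 CPM and was at 0, 0 and 0.626 CPM in the 3 MII NMN oocytes.

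Oxoglutarate is decarboxylated by the complex of Ogdh, the first enzyme, and Dlst, the succinyltransferase core. Ogdh stood at 20.6 and 26.6 CPM in the young control, 11.2 and 18.7 CPM in the aged control and 13.1, 10.6 and 12.7 CPM in the NMN GV oocytes. At MII the values were 0, 40.8 and 50.5 CPM in young control, 71.03, 35.6 and 41.8 CPM in aged control and 0, 0 and 47.2 CPM in NMN oocytes, so that 3 MII oocytes had none and the other 6 had more than any GV oocyte. In aged controls MII was 3.31-fold higher than GV with no overlap, and in GV oocytes the aged controls lay below the young, at 14.97 ± 5.27 against 23.6 ± 4.26 CPM.

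Dlst went the other way in controls. GV oocytes held 28.4 and 14.1 CPM in the young control, 21.1 and 29.8 CPM in the aged control and 29.1, 28.3 and 6.55 CPM in the NMN oocytes. Its MII values were 0, 3.74 and 6.42 CPM in young control, 1.06, 14.3 and 0 CPM in aged control and 22.5, 27.03 and 0 CPM in NMN oocytes. In young controls it was 6.27-fold and in aged controls 4.97-fold lower at MII, with no overlap in either. In NMN oocytes the stages overlapped.

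Succinyl-CoA ligase, the step that makes a nucleotide triphosphate in the cycle, joins the shared subunit Suclg1 to either Sucla2, which makes ATP, or Suclg2, which makes GTP. Sucla2 stood at 41.0 and 101 CPM in the young control, 15.5 and 125 CPM in the aged control and 46.3, 37.2 and 67.8 CPM in the NMN GV oocytes. The MII oocytes had 15.5, 7.95 and 104 CPM in young control, 10.6, 3.76 and 15.6 CPM in aged control and 0.791, 0 and 2.82 CPM in NMN oocytes. MII means were lower in all 3 conditions, with log2 ratios of -0.72, -2.70 and -4.55. In young controls MII oocyte 2-1 was as high as the GV oocytes, and in NMN oocytes no MII value came near the GV values.

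Suclg2 was the counterpart, at 17.5 and 9.14 CPM in the young control, 5.44 and 17.95 CPM in the aged control and 14.7, 6.80 and 0 CPM in the NMN GV oocytes. The MII oocytes carried 52.6, 27.9 and 91.7 CPM in young control, 12.9, 26.8 and 52.02 CPM in aged control and 4.35, 128 and 43.8 CPM in NMN oocytes. Young controls did not overlap and had a MII mean 4.30-fold higher, 57.4 ± 32.2 against 13.3 ± 5.93 CPM. Aged control and NMN oocytes overlapped between stages, with log2 ratios of 1.31 and 2.87.

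The shared subunit Suclg1 stood at 4.90 and 12.02 CPM in the young control, 77.8 and 44.02 CPM in the aged control and 95.5, 89.98 and 46.6 CPM in the NMN GV oocytes. Its level at MII was 47.98, 74.2 and 27.9 CPM in young control, 74.2, 78.2 and 11.3 CPM in aged control and 15.4, 3.73 and 10.3 CPM in NMN oocytes. Both young GV oocytes lay below all other GV oocytes, so that the aged GV controls were 7.20-fold higher. From GV to MII the mean was 5.92-fold higher in young controls and 7.87-fold lower in NMN oocytes, each without overlap, and the difference between these 2 conditions was not tested.

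Succinate dehydrogenase feeds electrons to the respiratory chain as complex II. Its flavoprotein is Sdha, its iron-sulphur subunit Sdhb, and Sdhc with Sdhd anchor it in the inner membrane. Sdhb, at chr4:140961203-140979193 on the plus strand, had 145 and 179.7 CPM in the young control, 170.2 and 247 CPM in the aged control and 173, 192 and 330.3 CPM in the NMN GV oocytes. In MII oocytes the values were 0, 2.96 and 3.31 CPM in young control, 15.2, 3.76 and 10.9 CPM in aged control and 26.5, 0 and 2.50 CPM in NMN oocytes. All 7 GV oocytes were above 140 CPM and all 9 MII oocytes below 27 CPM, in batch 1 (170.2 to 192 against 0 to 26.5 CPM) as in batch 2 (179.7 to 330.3 against 2.50 to 10.9 CPM). The pooled counts of the GV young controls were 1252, with a counting interval of 149.9 to 168 unscaled CPM, against 35 counts and 1.61 to 3.21 CPM in MII young controls. The MII mean was 77.7-fold lower in young, 20.96-fold lower in aged and 23.99-fold lower in NMN oocytes. Among the MII groups, aged controls exceeded young controls in every oocyte, 9.94 ± 5.76 against 2.09 ± 1.82 CPM.

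Sdhd, an anchor subunit, stood at 72.97 and 67.1 CPM in the young control, 359 and 27.3 CPM in the aged control and 462, 444 and 64.7 CPM in the NMN GV oocytes. MII oocytes contained 124, 42.5 and 9.11 CPM in young control, 55.2, 65.6 and 16.7 CPM in aged control and 0, 0 and 38.5 CPM in NMN oocytes. The 3 GV oocytes above 350 CPM were all batch 1 oocytes of aged mice. In NMN oocytes MII was 25.2-fold lower with no overlap, but the log2 ratio within batch 2 was -0.73. In young controls the stages overlapped, with a log2 ratio of -0.25.

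The other anchor, Sdhc, had 12.6 and 2.61 CPM in the young control, 109 and 0.492 CPM in the aged control and 168, 145 and 15.8 CPM in the NMN GV oocytes. At the MII stage it was at 104, 77.5 and 46.2 CPM in young control, 43.2, 77.7 and 17.1 CPM in aged control and 25.7, 2.49 and 10.01 CPM in NMN oocytes. The young MII oocytes exceeded both young GV oocytes 9.96-fold on average, the opposite of Sdhb in the same oocytes. In aged control and NMN oocytes the stages overlapped. Sdha, the catalytic flavoprotein, had GV means of 75.5 ± 2.97, 56.5 ± 52.6 and 38.3 ± 27.6 CPM and MII means of 43.3 ± 42.9, 35.04 ± 17.1 and 31.8 ± 51.3 CPM in young control, aged control and NMN oocytes, and the stages overlapped in every condition.

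Fumarate is hydrated to malate by fumarate hydratase, Fh1. GV oocytes held 16.2 and 18.5 CPM in the young control, 45.7 and 54.1 CPM in the aged control and 64.3, 50.3 and 61.99 CPM in the NMN oocytes. Values at MII were 12.8, 33.5 and 24.2 CPM in young control, 26.6, 6.51 and 9.09 CPM in aged control and 0, 0 and 22.8 CPM in NMN oocytes. All 5 aged GV oocytes exceeded both young GV oocytes, and the aged control mean was 2.87-fold that of the young. From GV to MII it was 3.54-fold lower in aged controls and 7.73-fold lower in NMN oocytes without overlap, and the stages overlapped in young controls with a log2 ratio of 0.41. The aged control log2 ratio of -1.76 became -0.93 on the TPM scale.

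Malate is oxidised by Mdh2 in the matrix, the last step of the cycle, and by Mdh1 in the cytosol, as a part of the malate-aspartate shuttle. Mdh2, at chr5:135778480-135790398 on the plus strand, stood at 67.04 and 36.8 CPM in the young control, 351 and 91.7 CPM in the aged control and 467, 441 and 112 CPM in the NMN GV oocytes. The MII oocytes had only 20.5, 3.27 and 4.55 CPM in young control, 14.1, 0 and 0 CPM in aged control and 0, 0 and 0 CPM in NMN oocytes. No stage overlap occurred in any condition or batch (batch 1, 350.6 to 467 against 0 to 20.5 CPM; batch 2, 36.8 to 112 against 0 to 4.55 CPM). The MII mean was 5.49-fold lower in young and 47.1-fold lower in aged controls. In MII NMN oocytes Mdh2 had no count, at least 1014-fold below GV NMN oocytes when 3 counts over the group serve as the floor. In GV oocytes aged controls stood 4.26-fold above young controls, and the log2 ratio of 2.07 became 0.81 without GV aged control 1.

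Mdh1 was present at both stages. The GV values were 75.8 and 67.4 CPM in the young control, 135 and 87.1 CPM in the aged control and 246, 223 and 45.4 CPM in the NMN oocytes. MII oocytes showed 149, 281 and 123 CPM in young control, 78.8, 203 and 104 CPM in aged control and 0, 91.4 and 87.6 CPM in NMN oocytes. Young MII oocytes all exceeded young GV oocytes, 184 ± 84.9 against 71.6 ± 5.94 CPM, while aged control and NMN stages overlapped. The young log2 ratio of 1.35 became 0.92 without MII young control 2. Aged GV controls lay above young ones, 111 ± 34.1 against 71.6 ± 5.94 CPM, a log2 ratio of 0.63.

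Malic enzyme Me2, which turns malate into pyruvate in mitochondria, had 117 and 71.8 CPM in the young control, 20.6 and 76.7 CPM in the aged control and 29.8, 21.2 and 69.3 CPM in the NMN GV oocytes. MII groups had 42.5, 42.9 and 52.2 CPM in young control, 61.7, 29.1 and 226 CPM in aged control and 1.98, 9.63 and 240.3 CPM in NMN oocytes. The young MII oocytes lay below the young GV oocytes, 45.9 ± 5.47 against 94.3 ± 31.8 CPM, a log2 ratio of -1.02 that became -0.27 on the TPM scale and -0.63 without GV young control 1. The 2 highest values of all oocytes, 226 and 240.3 CPM, were those of the batch 2 aged control and NMN oocytes at MII.

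**Figure D4:**
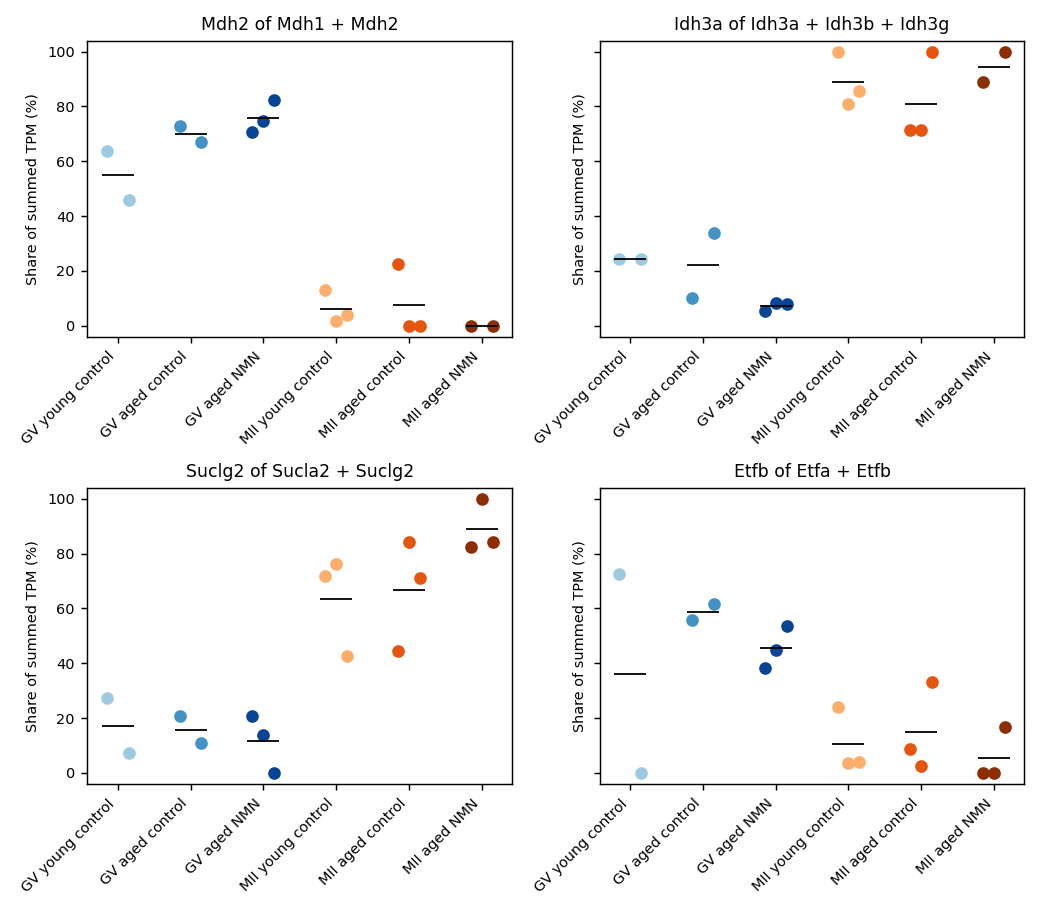
Share of 1 partner in the summed TPM of its enzyme or isoform pair, 1 point per oocyte with the group mean as a black bar; an oocyte with no count of any partner has no point. The Mdh2 share spans 45.9 to 82.5% before maturation and 0 to 22.5% at MII, and the Idh3a and Suclg2 shares run the opposite way.

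A share between partners of 1 enzyme within an oocyte does not depend on how libraries are scaled to each other. Mdh2 made up 63.9 and 45.9% of the summed TPM of Mdh1 and Mdh2 in GV young controls, 72.9 and 67.1% in GV aged controls and 70.7, 74.7 and 82.5% in GV NMN oocytes. At MII it made up 13.1, 1.81 and 3.75% in young and 22.5, 0 and 0% in aged controls and 0% in the 2 NMN oocytes that held either mRNA. The 7 GV oocytes, with a median of 70.7%, were all above the 8 MII oocytes, with a median of 0.906%. The mitochondrial isoform held the larger share in 6 of the 7 GV oocytes and in none of the 8 MII oocytes on the TPM scale. On the CPM scale, which is not corrected for length, the Mdh2 shares of the GV young controls were 46.9 and 35.3%.

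Idh3a made up 24.3 and 24.4% of the TPM of the 3 Idh3 subunits in GV young controls, 10.1 and 33.99% in aged controls and 5.55, 8.39 and 7.96% in NMN oocytes. The MII shares were 100, 80.8 and 85.5% in young controls, 71.3, 71.4 and 100% in aged controls and 89.0 and 100% in the 2 NMN oocytes with counts. Every MII oocyte with counts was above every GV oocyte. Of Sucla2 and Suclg2, the latter made up 27.2 and 7.35% in GV young controls, 20.6 and 10.9% in aged controls and 20.7, 13.7 and 0% in NMN oocytes. At MII this GTP-forming subunit made up 71.99, 76.1 and 42.6% in young controls, 44.6, 84.3 and 71.0% in aged controls and 82.6, 100 and 84.1% in NMN oocytes. The stages did not overlap over all 16 oocytes, and the thinnest of these shares rests on 13 counts.

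Sdhb made up 24.5 to 77.4% of the 4 Sdh subunits in GV oocytes but 0 to 13.0% in 8 of the 9 MII oocytes. The exception was MII NMN 1, at 58.1%, and the smallest base was 8 counts in MII NMN 2. Etfb made up 38.3 to 72.4% of Etfa and Etfb in 6 GV oocytes, 0% in GV young control 2-2, and 0 to 33.1% in MII oocytes. With CPM in place of TPM the GV and MII shares of Mdh2, Idh3a and Suclg2 still did not overlap. These shares were chosen after the values had been seen and are given as a description.

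Fatty acids enter mitochondria as carnitine esters that Cpt2 turns back into acyl-CoA inside the inner membrane, after Cpt1 has made them outside. Cpt2 stood at 14.7 and 0 CPM in the young control, 16.9 and 2.95 CPM in the aged control and 14.2, 16.3 and 60.4 CPM in the NMN GV oocytes. MII oocytes retained 20.1, 5.92 and 13.9 CPM in young control, 0, 1.002 and 2.91 CPM in aged control and 0, 0 and 0 CPM in NMN oocytes. The young MII oocytes all exceeded the aged MII controls, 13.3 ± 7.11 against 1.30 ± 1.48 CPM, so that Cpt2 was 10.2-fold lower with age at MII. NMN oocytes had no Cpt2 count at MII, at least 90.4-fold below GV NMN oocytes. Cpt1a, as given above, was below the filter at both stages.

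Acyl-CoA dehydrogenases take the first electrons, each for a range of chain lengths. Acadm, the medium chain enzyme, was the abundant member, at 3.61 and 40.2 CPM in the young control, 29.7 and 30.0 CPM in the aged control and 61.4, 35.3 and 21.2 CPM in the NMN GV oocytes. The MII level was 38.97, 78.9 and 55.5 CPM in young control, 57.5, 62.4 and 34.6 CPM in aged control and 113, 238 and 89.8 CPM in NMN oocytes. Both aged conditions were higher at MII without overlap, 1.72-fold in controls and 3.74-fold in NMN oocytes. All 3 NMN oocytes exceeded the aged controls at MII, 147 ± 79.8 against 51.5 ± 14.8 CPM, a log2 ratio of 1.49 that became 0.90 with library totals, 0.44 on the TPM scale and 0.92 without MII aged NMN 2. Acadl, for long chains, had counts in 3 GV oocytes, up to 1.14 CPM, and in 4 MII control oocytes, up to 25.8 CPM.

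The trifunctional protein, which carries out the later steps on long chains, is built from Hadha and Hadhb. Hadha stood at 11.1 and 22.2 CPM in the young control, 39.5 and 18.2 CPM in the aged control and 27.7, 33.7 and 16.2 CPM in the NMN GV oocytes. At MII it stood at 37.5, 85.9 and 25.1 CPM in young control, 56.9, 56.6 and 88.4 CPM in aged control and 0, 0 and 48.8 CPM in NMN oocytes. MII control oocytes exceeded their GV counterparts in both ages without overlap, 2.97-fold in young and 2.33-fold in aged animals. The young log2 ratio of 1.52 became 0.17 within batch 2 and 0.87 without MII young control 2. The aged one of 1.19 became 0.51 within batch 1, 0.74 without GV aged control 2-1 and 0.95 without MII aged control 2-1. NMN oocytes lay below aged controls at MII, 16.3 ± 28.2 against 67.3 ± 18.3 CPM, with 2 of 3 at 0 and a log2 ratio of -0.84 within batch 2.

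Hadha and Hadhb start head to head on chromosome 5, with 85 bases between the annotated starts, and the shared promoter is shown because the partners share it yet differed in level between oocytes. The RefSeq entry for Hadhb on GRCm38.p6 follows, on the plus strand, with the bases between the starts in capitals.
Hadhb promoter, chr5:30155003-30155302: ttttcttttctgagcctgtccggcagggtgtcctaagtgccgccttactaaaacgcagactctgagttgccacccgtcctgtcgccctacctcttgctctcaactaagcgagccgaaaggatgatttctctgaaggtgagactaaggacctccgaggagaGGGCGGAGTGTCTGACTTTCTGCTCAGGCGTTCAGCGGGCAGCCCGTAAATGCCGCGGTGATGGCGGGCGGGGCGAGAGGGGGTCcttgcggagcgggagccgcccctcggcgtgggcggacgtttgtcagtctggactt
Its GC content was 60.7%, against a median of 52.7% over 32851 promoter entries, and 29 of the 33 genes had an entry. Hadhb lay between 3.26 and 42.8 CPM before maturation and between 2.18 and 75.4 CPM after it, with a median share of Hadha in the pair of 67.5% in GV and 80.9% in MII oocytes. That share spanned 21.4 to 88.8% among GV and 0 to 98.2% among MII oocytes, so the partners were not held at 1 ratio between oocytes.

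Echs1, the enoyl-CoA hydratase for shorter chains, lay between 20.9 and 84.3 CPM before and 23.1 and 118 CPM after maturation, with log2 ratios of 0.69, -0.20 and -0.11. Acaa2, the thiolase of the last step, had 0 and 1.83 CPM in the young control, 5.44 and 6.15 CPM in the aged control and 18.3, 15.8 and 7.32 CPM in the NMN GV oocytes. In MII oocytes counts were found in 2 young controls only, at 6.39 and 0.828 CPM. NMN GV oocytes were above aged control GV oocytes, 13.8 ± 5.76 against 5.80 ± 0.497 CPM without overlap, a log2 ratio of 1.12 that became 0.22 within batch 2, 0.88 without GV aged NMN 1, 0.92 with library totals and 0.90 on the TPM scale. Against the floor the aged MII controls were at least 23.99-fold and the MII NMN oocytes at least 41.1-fold below GV.

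Electron transfer flavoprotein, a dimer of Etfa and Etfb, collects electrons from the acyl-CoA dehydrogenases, and Etfdh passes them to ubiquinone. Etfa, at chr9:55454508-55512243 on the minus strand, had 68.6 and 139 CPM in the young control, 163 and 97.1 CPM in the aged control and 285, 198 and 152 CPM in the NMN GV oocytes. MII oocytes gave 219.6, 344 and 130.2 CPM in young control, 168, 290.4 and 53.8 CPM in aged control and 37.6, 149.8 and 40.4 CPM in NMN oocytes. The stages overlapped in both controls, with log2 ratios of 1.15 and 0.39. In NMN oocytes the highest MII oocyte, at 149.8 CPM, lay below the lowest GV oocyte, at 152 CPM. Over the 16 oocytes the genes most alike to Etfa in CPM were Slc25a48 with a Spearman rho of 0.92, C1qtnf12 with 0.88 and Ints12 with 0.87, a description over oocytes that share batch and depth.

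Etfb, the partner, had 106 and 0 CPM in the young control, 107 and 84.8 CPM in the aged control and 98.0, 85.9 and 103 CPM in the NMN GV oocytes. For MII the values were 28.3, 7.48 and 2.48 CPM in young control, 7.40, 3.01 and 12.4 CPM in aged control and 0, 0 and 4.38 CPM in NMN oocytes. GV young control 2-2 had no count of Etfb and 138.7 CPM of Etfa. All other GV oocytes were above 84 CPM and all MII oocytes below 29 CPM. The MII mean was 12.7-fold lower in aged controls and 65.5-fold lower in NMN oocytes without overlap, and 4.15-fold lower in young controls, where the empty GV oocyte made the stages overlap. Etfdh lay between 11.6 and 24.96 CPM before maturation and 1.58 and 17.3 CPM after it, and aged GV controls, at 20.02 and 14.3 CPM, lay above the young, at 13.4 and 13.6 CPM.

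With age in GV oocytes 7 of the 29 genes were at least 2-fold higher, beside 31.2% of all kept genes, and 0 were lower, beside 12.2%, so the members' share did not exceed the background in either direction. Without overlap between oocytes, Suclg1, Mdh2, Fh1 and Acaa2 were higher by that much, beside 2399 of the 12161 kept genes. The median log2 ratio was 0.43, against 0.29 over all kept genes, and Sdhc, Sdhd and Hadhb were also past 2-fold but with overlapping oocytes. Within batch 2 the aged oocyte held Suclg1 at 44.0 CPM and Fh1 at 54.1 CPM, against 12.02 and 18.5 CPM in GV young control 2-2. In the same pair Sdhd was at 27.3 against 67.1 CPM and Sdhc at 0.492 against 2.61 CPM, opposite to the direction of their group means. The number of genes past 2-fold in either direction was 17 without GV aged control 2-1, 12 without GV young control 1 and 13 without GV young control 2-2.

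**Figure D5:**
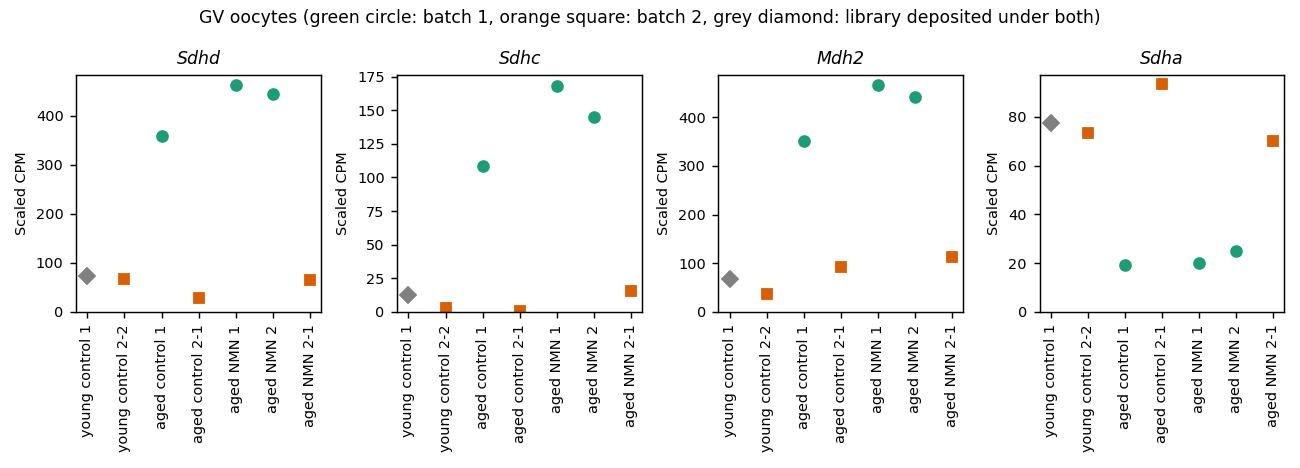
Scaled CPM of Sdhd, Sdhc, Mdh2 and Sdha in each of the 7 GV oocytes, marked by batch; the grey diamond is the library deposited under both batches. The 3 batch 1 oocytes, all from aged mice, are highest for Sdhd, Sdhc and Mdh2 and lowest for Sdha.

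Batch went with level in several cycle genes of GV oocytes. Sdhd ran from 359 to 462 CPM in batch 1 and from 27.3 to 67.1 CPM in batch 2, Sdhc from 109 to 168 and from 0.492 to 15.8 CPM, and Mdh2 from 350.6 to 467 and from 36.8 to 112 CPM. Sdha ran the other way, from 19.3 to 25.01 CPM in batch 1 and from 70.1 to 93.7 CPM in batch 2, as did Me2, from 20.6 to 29.8 and from 69.3 to 76.7 CPM, and Sucla2, from 15.5 to 46.3 and from 67.8 to 125 CPM. The 3 batch 1 oocytes are aged. The young library of ambiguous batch lay within the batch 2 range for Sdhc, at 12.6 CPM, Sdha, at 77.6 CPM, and Mdh2. For Sdhd, at 73.0 CPM, it was just above that range. For Sucla2 it lay within the batch 1 range and for Me2 above both ranges. For Sdhd and Sdhc, age and batch cannot be told apart in GV oocytes beyond the single batch 2 pairs given above.

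With age in MII oocytes 2 genes were at least 2-fold higher, beside 8.45% of all kept genes, and 5 were lower, beside 22.6%. The higher genes were Sdhb and Me2, and the lower ones Idh1, Idh3a, Sucla2, Cpt2 and Acaa2. Of these, Sdhb and Cpt2 did not overlap between oocytes. Of the 12161 kept genes, 214 were higher and 656 lower by that much without overlap. The median log2 ratio was -0.45, against -0.27 over all kept genes. It was -0.21 within batch 1 and -1.24 within batch 2, and 12 genes were past 2-fold without MII aged control 1 and 13 without MII aged control 2.

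Most genes differed by less than 2-fold between NMN and aged control GV oocytes, a comparison that shares its controls with those of age and maturation. 2 genes were at least 2-fold higher, beside 8.53% of all kept genes, namely Acaa2 and Cpt2, and 2 were lower, beside 12.3%, namely Idh3a and Hadhb. The median log2 ratio was 0.15, against 0.01 over all kept genes, with 0.21 within batch 1 and 0.00 within batch 2. Without GV aged control 1 the number past 2-fold was 14, and without GV aged NMN 2-1 it was 10.

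NMN in aged MII oocytes went with lower levels. 15 of 29 genes were at least 2-fold lower, beside 33.1% of all kept genes, and 2 were higher, beside 14.7%. The members' share of lower genes was above the background and was not tested. Other lists fell on both sides of the background. Above it were, among others, 6 of 11 oocyte markers, 4 of 9 cumulus and granulosa markers, 7 of 13 pyruvate entry genes and 4 of 8 fatty acid synthesis genes. Below it were other citric acid cycle genes, with 5 of 17 lower, and peroxisomal genes, with 2 of 8. The higher genes were Acadm and Dlst. The median log2 ratio was -1.05, against -0.33 over all kept genes, and 9 of the 15 lower genes belonged to the citric acid cycle and 6 to fatty acid oxidation. Of the lower genes, Idh1, Sucla2 and Hadha did not overlap between oocytes. Over all 12161 kept genes, 1372 were lower by that much without overlap, so 3 of 29 is close to the background. The median was -1.33 within batch 1 and -0.12 within batch 2, where 1 NMN oocyte faces 1 control. In this split MII aged NMN 2, titled batch 2, is counted in batch 1. The batch 1 NMN oocytes are those with 43.0 and 33.2% of counts from mitochondrially encoded genes and 17 and 13 detected members, and the part of that in the difference was not tested.

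Genes around the 33 were counted from lists of the wider pathway. Beside each count stand the shares of all kept genes given above, which at MII were 36.3% higher and 25.8% lower in young controls, 16.9 and 35.9% in aged controls, and 16.9 and 46.7% in NMN oocytes. A list of 7 to 17 genes near these shares says nothing particular about the list. Pyruvate entry held 13 kept genes of 15, of which 4 were at least 2-fold higher and 2 lower at MII in young controls, 1 and 6 in aged controls, and 0 and 7 in NMN oocytes. As shares these were 30.8 and 15.4%, 7.69 and 46.2%, and 0 and 53.8%. Mpc2, a subunit of the mitochondrial pyruvate carrier, was lower at MII without overlap in all 3 conditions, with 172 ± 1.05 against 26.6 ± 21.98 CPM in young controls. Its partner Mpc1 was at 259 ± 187 CPM in MII and 110.0 ± 13.7 CPM in GV young controls, 232 ± 61.9 and 154 ± 31.5 CPM in aged controls, and 198 ± 113 and 198 ± 53.5 CPM in NMN oocytes. Pdhb, the beta subunit of pyruvate dehydrogenase, was at 19.9 and 22.2 CPM in GV and 127, 131 and 132 CPM in MII young controls. Its GV and MII means were 57.3 ± 11.4 and 52.1 ± 37.7 CPM in aged controls and 75.2 ± 59.2 and 21.1 ± 20.1 CPM in NMN oocytes.

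Other citric acid cycle genes held 17 kept of 18, with 6 higher and 7 lower at MII in young controls, 0 and 9 in aged controls, and 0 and 12 in NMN oocytes. As shares these were 35.3 and 41.2%, 0 and 52.9%, and 0 and 70.6%. Of all kept genes the shares were 36.3 and 25.8%, 16.9 and 35.9%, and 16.9 and 46.7%. Sdhaf3, an assembly factor that helps build Sdhb into complex II, was at 61.6 ± 1.44 CPM in GV and 1.73 ± 1.66 CPM in MII young controls, 43.2 ± 5.76 and 11.6 ± 6.89 CPM in aged controls, and 52.2 ± 6.47 and 11.6 ± 20.05 CPM in NMN oocytes. Me1, the cytosolic malic enzyme, was higher at MII in controls, 580.5 ± 196 against 89.5 ± 12.8 CPM in young and 313 ± 132 against 163 ± 2.89 CPM in aged animals. In NMN oocytes it stood at 168 ± 71.3 CPM at MII and 164 ± 64.8 CPM at GV.

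Other mitochondrial fatty acid oxidation genes held 16 kept of 19, with 6 higher and 6 lower at MII in young controls, 2 and 6 in aged controls and 2 and 9 in NMN oocytes. As shares these were 37.5 and 37.5%, 12.5 and 37.5%, and 12.5 and 56.2%. They stand beside 36.3 and 25.8%, 16.9 and 35.9%, and 16.9 and 46.7% of all kept genes. Acot13, an acyl-CoA thioesterase, stood at 518 and 307 CPM in the young control, 243 and 577 CPM in the aged control and 233, 185 and 774 CPM in the NMN GV oocytes. After maturation 15.7, 2.65 and 2.28 CPM in young control, 0, 0 and 18.2 CPM in aged control and 0, 0 and 0 CPM in NMN oocytes remained, with no overlap between stages. Mlycd, which removes malonyl-CoA, the inhibitor of Cpt1, had 33.5 and 3.92 CPM in the young control, 37.6 and 2.95 CPM in the aged control and 18.8, 16.6 and 26.95 CPM in the NMN GV oocytes and no count in any MII oocyte. Of the 8 kept genes of fatty acid uptake and activation, 4 were higher and 1 lower at MII in young controls, among them Cd36, the fatty acid transporter, at 0 and 0.523 CPM in GV and 53.2, 10.8 and 117 CPM in MII oocytes. Its GV and MII means were 6.17 ± 7.97 and 7.59 ± 5.53 CPM in aged controls and 4.94 ± 2.62 and 1.36 ± 2.35 CPM in NMN oocytes. Of 8 peroxisomal genes 3 were higher and 2 lower in young controls, and of 8 genes of fatty acid synthesis 4 and 3. In aged controls the uptake, peroxisomal and synthesis lists had 2, 1 and 1 genes higher and 2, 2 and 4 lower. In NMN oocytes these lists had 1, 0 and 0 higher and 6, 5 and 5 lower. Of the 7 regulators kept, 4 were higher and 1 lower in young controls, 1 and 4 in aged controls, and 1 and 5 in NMN oocytes. The same shares of all kept genes stand beside the counts of these shorter lists.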

How the data were processed

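The authors deposited, per oocyte, a gene table with expected counts, from which all scaled values here derive, and TPM, used here for levels between genes, partner shares and as an alternative scale; the deposited FPKM was not used. Per the submitters' processing notes the reads went through TopHat2 2.1.1 and Cufflinks on mm10, after FastQC 0.11.8 and Trim Galore 0.4.5. The columns are those of an RSEM gene table, and the tool that made them is not given in the sources used here. One GV aged control library with 5009 counts was left out and 1 identical pair was counted once.

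Expected counts were filtered with filterByExpr (minimum count 10, edgeR 4.0.16 in R 4.3.3) and TMM scaled; 7 comparisons took log2 ratios of group means of CPM + 1, with a 2-fold threshold. Python 3.11.15 (pandas 2.3.3, numpy 2.4.6, scipy 1.17.1, matplotlib 3.10.9) computed the rest. The ratio calculation was tested on simulated counts for a single comparison, with no spread between oocytes beyond counting error. Since no animals are named, no test was run; SDs are between oocytes, and exact 95% Poisson intervals and floors of 3 counts cover counting error only. Depth was 2756181 to 5586894 counts per library.

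The members and lists were chosen with earlier results of these data known. Values in every oocyte are given for members among the 6 largest ratios in a direction, where oocytes did not overlap and the higher mean reached 10 CPM. Etfdh met this rule but is given by ranges and its control GV values only. The 4 members with the highest mean TPM are also given in every oocyte. Other genes given this way were chosen after their values were seen. Alternatives were RLE and total scaling, TPM, no filter, 0.1 CPM added, single batches and leaving out each oocyte. The reading of the duplicated library as batch 2, the partner shares and the other scalings of the shared count were chosen after seeing the data. One MII aged NMN library was read as batch 1, and its title read literally is an alternative. One gene of the wider pathway is not reported here.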

Additional observations from a re-analysis of the deposited data

Results flagged for a closer look

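Suclg1, the shared subunit of succinyl-CoA ligase, was higher at MII than at GV in every young control oocyte, with a log2 ratio of 2.43, and lower at MII in every NMN oocyte, with a log2 ratio of -2.86. It was flagged because the 2 conditions differed in opposite directions without overlap between stages. All kept genes shifted in these directions too, with median log2 ratios of 0.35 in young controls and -0.82 in NMN oocytes. Of them 36.3% were at least 2-fold higher in young controls and 46.7% at least 2-fold lower in NMN oocytes. The share that did both is not given. The difference between the conditions was not tested, and the MII NMN libraries held fewer detected genes than the others.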

How the results depend on the processing

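No paired analysis was possible because no test was run and the labels name no animals. Counts below are of the 29 kept genes past 2-fold in either direction, and medians are their log2 ratios. With age in GV oocytes the count of 7 became 11 on the TPM scale, 16 within batch 1 and 13 within batch 2, and 7 to 17 when 1 oocyte was left out. The median of 0.43 became 0.049 with the library of few counts kept. The batch 1 values for age in GV oocytes and for maturation in young controls rest on the young GV library of ambiguous batch. That library lay with batch 2 by its fractional counts, and read so it leaves no young GV oocyte in batch 1. With age in MII oocytes the count of 7 became 21 within batch 2 and 8 to 13 without 1 oocyte, and the median became -1.24 within batch 2. With NMN in GV oocytes the median of 0.15 became 0.63 and the count of 4 became 9 with that library kept, and 3 to 14 without 1 oocyte. With NMN in MII oocytes the count of 17 became 10 within batch 2, or 11 with the title read literally. For maturation in young controls the median of 0.69 became 0.35 with RLE, 1.15 with TPM, 0.41 with no filter, -0.014 within batch 1 and 0.25 to 0.87 without 1 oocyte (0.25 without MII young control 2-1, 0.29 without MII young control 2, 0.39 without GV young control 1). For aged controls the median of -0.64 became -0.10 with the library of few counts and -0.72 to -0.19 without 1 oocyte, the latter without GV aged control 1. The summed CPM became 1161 with RLE, 1049.6 with totals and 1119 without mitochondrially encoded genes in GV young controls. It became 1448 within batch 2 in GV NMN oocytes, 1053 with RLE and 1515 without mitochondrially encoded genes in MII young controls, and 1155 with totals and 1295 without those genes in MII aged controls. The cause of these shifts was not tested. Groups of 2 or 3 oocytes and floors near 1 CPM limit what low genes such as Idh2 or Hadh can show.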
